A study of Mus musculus with 8 samples.

Results

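Transforming growth factor beta (TGF-beta) is a cytokine that cells secrete in a latent form. Once activated, it binds a type II receptor that recruits and phosphorylates a type I receptor, which in turn phosphorylates the receptor Smads Smad2 and Smad3. These join Smad4 and enter the nucleus, where the co-repressors Ski, SnoN (the product of Skil) and Tgif1 limit transcription by the complex, and where the inhibitory Smad7 and Skil are themselves transcribed in response to the signal. In T cells the pathway restrains activation and induces the alpha E integrin of lymphocytes that lodge in epithelia, and invariant natural killer T (iNKT) cells need it during their development.

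The 10 genes described here are Tgfb1 (ligand), Tgfbr1 and Tgfbr2 (receptors), Smad2, Smad3, Smad4 and Smad7 (signal transducers and inhibitor), and Ski, Skil and Tgif1 (nuclear co-repressors). They were chosen by name, with earlier results of these data known, and all 10 are among the 22549 genes of the table. The study set iNKT cells from the skin, with 4 libraries, against iNKT cells from the spleen, with 4 libraries. Mice of both groups had the genotype CCR10+/EGFP, that is, 1 allele of the chemokine receptor gene Ccr10 carries EGFP. The sources used here give no strain, age or treatment, and do not say whether animals were pooled. Nor do the labels say that the numbered libraries of a tissue came from separate animals, so p-values reflect only how these libraries vary, and that variation may be technical.

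Total expected counts were 7221498 to 9791973 in skin libraries and 7191131 to 9361237 in spleen libraries. Gene levels are in CPM (counts after scaling every library to the same total), and 3 counts correspond to 0.292 to 0.454 CPM. Many genes had no count in some libraries: of the 6920 genes tested, 26.1% to 32.6% stood at 0 in a skin library and 0.780% to 22.4% in a spleen library. The 6 T cell markers examined summed to 3003 to 4021 CPM in skin, against 4235 to 6118 CPM in spleen. The 10 keratinocyte markers summed to 892, 334, 1032 and 273 CPM in skin replicates 1 to 4, against 0 to 29.5 CPM in spleen, where 7 of them stood at 0 in all 4 libraries. The 7 fibroblast markers summed to 0 to 168 CPM in skin, against 0 in spleen. The sums of the 8 macrophage and dendritic cell markers overlapped between tissues, at 16.3, 384, 223 and 196 CPM in skin replicates 1 to 4, against 40.6 to 195 CPM in spleen. Csf1r and Emr1 were at 0 in both tissues, while Cd68 and Itgax had counts in skin and were at 0 in all 4 spleen libraries. All 6 platelet markers and all 6 mast cell markers stood at 0 in all 8 libraries. The 5 B cell markers summed to 0 in skin, against 31.5 to 166 CPM in spleen. The spleen libraries had the same order by this sum as by the macrophage and dendritic cell sum. The 4 erythroid markers summed to at most 0.424 CPM in skin, against 111 to 228 CPM in spleen. The 4 endothelial markers summed to 0 to 77.0 CPM in skin, against 0 to 57.4 CPM in spleen. Spleen replicate 4 stood apart from the other spleen libraries in genes transcribed soon after a stimulus and in detection. The AP-1 gene Fos was at 809 to 1974 CPM in skin and at 950.02 CPM in spleen replicate 4, against at most 0.0974 CPM in the other spleen libraries. Spleen replicate 4 had counts for 10094 genes, against 6415, 6897 and 8690 in spleen replicates 1 to 3. Its share of tested genes at 0 was 0.780%, against 22.4%, 17.4% and 4.84% in spleen replicates 1 to 3. The part of this difference in detection in the results below was not tested.

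Transcripts of the ligand Tgfb1 and of the feedback inhibitors Skil and Smad7 stood above every spleen library in every skin library. The remaining 7 genes overlapped between the tissues. None of the 10 passed edgeR's quasi-likelihood test at a Benjamini-Hochberg adjusted p under 0.05, while 1 of them, Tgfb1, had an unadjusted p under 0.05. Over all 6920 genes tested, 5.43% were called, 1.85% higher in skin and 3.58% lower, and 12.4% had an unadjusted p under 0.05. With DESeq2, 1 of the 10 was called (Tgfb1) and 4 had an unadjusted p under 0.05, against 10.7% and 16.6% of all genes tested. With limma-voom, 1 was called (Skil) and 3 had an unadjusted p under 0.05, against 10.5% and 27.6% of all genes. Under both tools the called share of the 10 genes was thus close to that of all genes. The values of 3 of the 10 genes did not overlap and lay higher in skin, and 0 lay lower, against 6.11% and 13.4% of all genes tested (19.5% together). The median log2 fold change, skin over spleen, was 1.29 over the 10 genes and -0.29 over all genes tested. The latter depended on the filter. It was 0.02 over genes with a count in 3 or 4 libraries of both tissues, and -0.70 with no filter. On the log2 scale 9 of the 10 genes were above 0 and 1 below, against 2920 above and 4000 below among all genes tested. Of the 9, Smad2 (0.10) and Smad3 (0.06) lay close to 0. With limma-voom Tgfbr1, Smad2, Smad3 and Smad4 were below 0, where the median of all genes moved by -1.55.

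**Figure D1:**
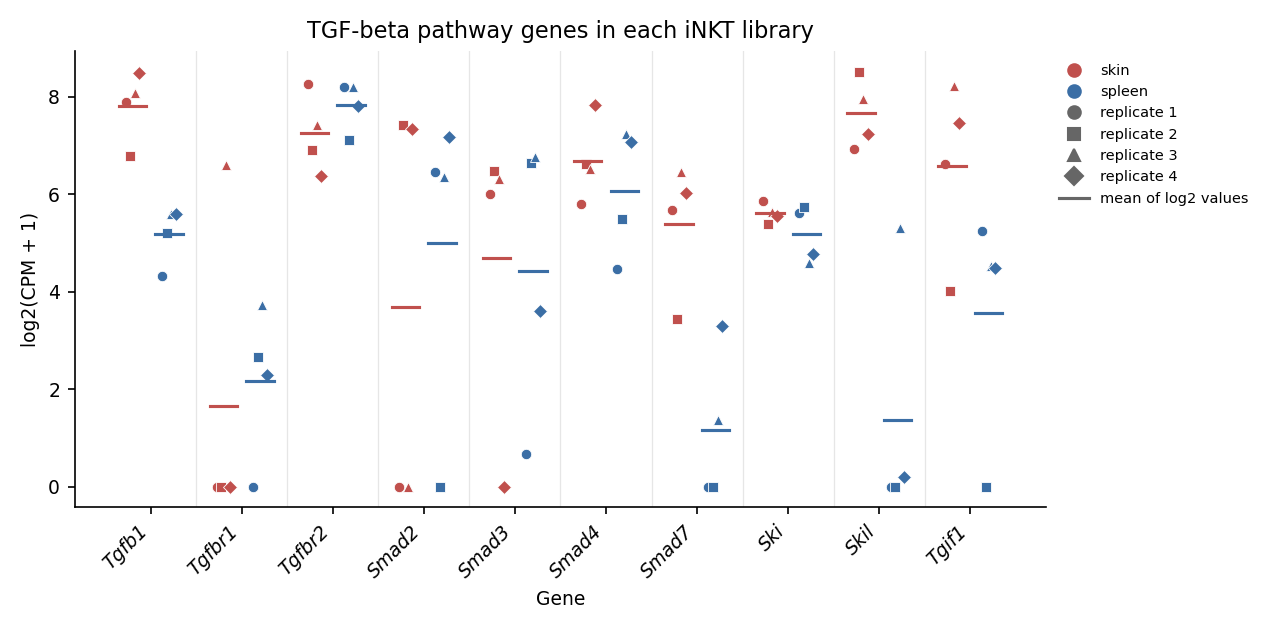
Level of each of the 10 genes in each library as log2(CPM + 1), with skin libraries in red to the left of spleen libraries in blue, a marker shape for each replicate number and a line at the mean of the 4 log2 values. Tgfb1, Smad7 and Skil are the 3 genes whose skin values all lie above their spleen values.

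Tgfb1 encodes TGF-beta 1, the isoform that lymphocytes make. It stood at 236, 109, 269.8 and 359 CPM in skin replicates 1 to 4, against 19.0, 35.9, 47.6 and 47.6 CPM in spleen replicates 1 to 4. The lowest skin library was thus above the highest spleen library. The means were 244 ± 104 CPM in skin, against 37.5 ± 13.5 CPM in spleen (SD, n = 4 each), a 6.49-fold ratio. The log2 fold change was 2.70 ± 0.69 (SE), with a 95% interval of 1.14 to 4.26 that is not adjusted for the number of genes. The edgeR adjusted p was 0.0551, just short of the threshold. Scaling by DESeq2's size factors gave an edgeR adjusted p of 0.0472, and DESeq2 itself gave 1.92e-05. These were the only 2 of the 18 alternatives that called Tgfb1. With limma-voom the adjusted p was 0.0538. In the 8 fits without 1 library Tgfb1 was called 0 times (edgeR adjusted p = 0.0748 to 0.165). Over all 18 alternatives the log2 fold change stayed between 2.33 and 2.91 and the adjusted p ran from 1.92e-05 to 0.355. The spleen values of Tgfb1 rest on 195 to 334 counts per library and the skin values on 995 to 2545. In skin replicates 1 to 3, Tgfb1 had the same order as the keratinocyte sums, while its highest value, in replicate 4, came with the lowest sum. The part of these other cells in the result was not tested. In such bulk samples fewer cells of a type and less RNA per cell cannot be told apart.

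The type II receptor Tgfbr2 had the opposite sign and was detected in all 8 libraries. It stood at 307, 119, 171 and 82.0 CPM in skin, against 293, 138, 294 and 224 CPM in spleen. The tissues overlapped, with the highest library and the 2 lowest in skin. Its means were 169.8 ± 98.6 CPM in skin, against 237 ± 73.9 CPM in spleen (n = 4 each). The log2 fold change was -0.48 ± 0.52 (SE; 95% interval -1.67 to 0.70; edgeR adjusted p = 0.998). This interval is the narrowest of the 10 genes and leaves room for a fall of up to 1.67 or a gain of up to 0.70 on the log2 scale.

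The type I receptor Tgfbr1, the kinase that phosphorylates Smad2 and Smad3, stood at 0 in 3 skin libraries and 1 spleen library. It stood at 0, 0, 95.4 and 0 CPM in skin, against 0, 5.35, 12.3 and 3.86 CPM in spleen. A single skin library thus carried all of its skin counts, while 3 spleen libraries had low values. The fitted log2 fold change of 2.15 had an SE of 2.94 and a 95% interval of -4.53 to 8.83 (edgeR adjusted p = 0.998). Without skin replicate 3 it was -8.43 (edgeR adjusted p = 0.175), but no skin count was then left, so the size of this value means little. The direction of Tgfbr1 thus rests on that library. Among genes at a like level in the other skin libraries, 41.6% of skin values stood at 0.

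The receptor Smads gave no direction. Smad2 stood at 0, 169.8, 0 and 160.4 CPM in skin, against 86.2, 0, 80.4 and 142 CPM in spleen. Libraries were either at 0 or above 80 CPM, in both tissues. The log2 fold change was 0.10 ± 2.52 (SE; 95% interval -5.62 to 5.82; edgeR adjusted p = 0.999). Genes at a like level stood at 0 in 18.1% of skin values and 11.9% of spleen values. Smad3 stood at 62.8, 87.5, 78.1 and 0 CPM in skin, against 0.584, 99.3, 108 and 11.1 CPM in spleen. Its 3 detected skin values lay close together and within the range of the spleen values. Smad3 had a log2 fold change of 0.06 ± 2.02 (SE; 95% interval -4.52 to 4.65; edgeR adjusted p = 0.999).

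Smad4, the common partner of the receptor Smads, was detected in all 8 libraries. It stood at 54.3, 96.8, 91.0 and 225 CPM in skin, against 21.0, 43.7, 149 and 133 CPM in spleen. The highest library was in skin and the lowest 2 were in spleen, with overlap between. The means were 117 ± 74.5 CPM in skin, against 86.8 ± 63.8 CPM in spleen (n = 4 each; log2 fold change 0.43 ± 0.99, SE; 95% interval -1.80 to 2.65; edgeR adjusted p = 0.998). Without skin replicate 4 the log2 fold change was -0.14.

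Smad7, the inhibitory Smad that TGF-beta induces and that targets the receptors for degradation, was scarce in spleen. It stood at 50.1, 9.79, 86.5 and 63.7 CPM in skin, against 0, 0, 1.57 and 8.77 CPM in spleen. The tissues did not overlap, but the lowest skin and the highest spleen value lay close together. The means were 52.5 ± 32.2 CPM in skin, against 2.58 ± 4.19 CPM in spleen (n = 4 each). Smad7 had a log2 fold change of 4.34 ± 2.37 (SE; 95% interval -1.05 to 9.73; edgeR adjusted p = 0.612). The highest spleen value was in replicate 4, the spleen library with Fos and with the fewest tested genes at 0. Without it the log2 fold change was 6.61 (edgeR adjusted p = 0.470). Among spleen genes at a like level, 43.9% of values stood at 0.

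The co-repressor genes Ski and Skil are paralogs, and their values differed in pattern. Skil stood at 121, 365, 247 and 149 CPM in skin, against 0, 0, 38.5 and 0.149 CPM in spleen. Every skin library held at least 799 counts of Skil, while 3 of 4 spleen libraries held at most 1 count and replicate 3 held 270. The means were 221 ± 110.4 CPM in skin, against 9.66 ± 19.2 CPM in spleen (n = 4 each). Skil had a log2 fold change of 4.51 ± 2.33 (SE; 95% interval -0.77 to 9.80; edgeR adjusted p = 0.552). Without spleen replicate 3 the log2 fold change was 11.86 and Skil was called (edgeR adjusted p = 0.0333), and it was called by limma-voom with all 8 libraries (adjusted p = 0.0275). In the other 7 fits without 1 library it was not called. Genes at a like level in the other spleen libraries stood at 0 in 30.2% of spleen values. In skin, the order of the 4 libraries by Skil was the same as by the sum of macrophage and dendritic cell markers. By keratinocyte markers the skin order was different, with the highest sum in replicate 3 and the lowest in replicate 4. Among spleen libraries, replicate 3 had the highest Skil value and the lowest sum of macrophage and dendritic cell markers, 40.6 CPM. Spleen replicate 1 had the highest such sum, 195 CPM, and no Skil count. In spleen this sum gave the same order of libraries as the B cell markers did. The part of any of these cell types in the Skil result was not tested.

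Ski had the steadiest values of the 10 genes in skin. It stood at 57.4, 41.0, 48.8 and 46.2 CPM in skin, against 47.7, 52.6, 23.1 and 26.5 CPM in spleen. The skin values lay above the 2 lower spleen libraries and around the 2 higher ones. The means were 48.4 ± 6.82 CPM in skin, against 37.5 ± 14.9 CPM in spleen (n = 4 each; log2 fold change 0.37 ± 1.22, SE; 95% interval -2.40 to 3.13; edgeR adjusted p = 0.998). Whether Ski and Skil differed in their change was not tested.

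Tgif1, a homeodomain protein that represses Smad-bound promoters, stood at 96.7, 15.2, 299 and 176 CPM in skin, against 36.7, 0, 22.1 and 21.4 CPM in spleen. Here 3 skin libraries lay above all spleen libraries and skin replicate 2 lay among them. Skin replicate 2 was the lowest skin library for Tgfb1 and Smad7 too, while it was the highest for Skil. The means of Tgif1 were 147 ± 121 CPM in skin, against 20.1 ± 15.1 CPM in spleen (n = 4 each). The log2 fold change was 2.87 ± 1.76 (SE; 95% interval -1.13 to 6.87; edgeR adjusted p = 0.719), and it was called under none of the 18 alternatives.

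**Figure D2:**
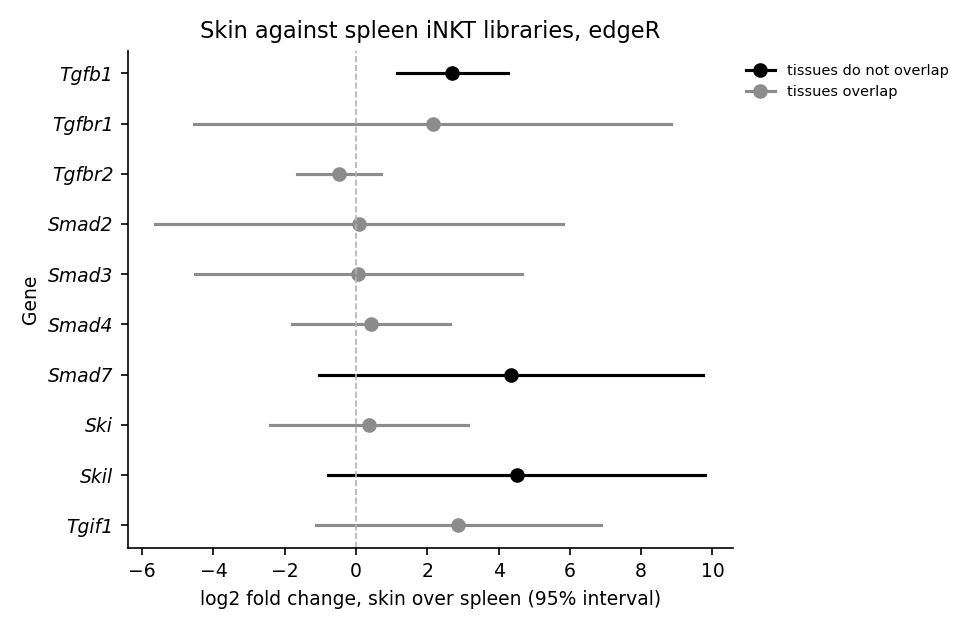
Log2 fold change of the 10 genes (x axis, skin over spleen, edgeR) with 95% intervals that are not adjusted for the number of genes, in black where the 4 skin and 4 spleen values do not overlap and in grey where they do. The interval of Tgfb1 runs from 1.14 to 4.26, and the other 9 intervals include 0.

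The genes whose profile over the 8 libraries was closest to those of the 4 genes detected in every library were found by the root mean square difference of centred log2(CPM + 1) values. For Tgfb1 these included Ppp1cc, a catalytic subunit of protein phosphatase 1 (0.365), and the hexokinase Hk2 (0.43). Ppp1cc rose to 1471 ± 603 CPM in skin, against 316 ± 156 CPM in spleen (log2 fold change 2.22, edgeR adjusted p = 0.0327). Hk2 was scarce, at 7.33 ± 5.31 CPM in skin, against 0.111 ± 0.223 CPM in spleen (log2 fold change 5.90, edgeR adjusted p = 0.142). The 1 CPM added before the log compresses the change of so scarce a gene, so Hk2 is close to Tgfb1 in this measure only. For Tgfbr2 the closest were Ap2s1 (0.31), Idh3a (0.32) and H2-Ke6 (0.35), and for Smad4 they were Nup50 (0.44), Tm9sf3 (0.51) and Ppp2r5a (0.53). For Ski they included Tmem189 (0.30) and Zfp622 (0.31). Of the genes of like profile named here, none but Ppp1cc was called.

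The other genes of the pathway were taken as 4 lists of 95 genes in all, of which 64 had a count in any library and 45 were tested. Over all 22549 genes, 11429 had a count and 6920 were tested. Of the 45 genes, 1 was higher in skin, Cdkn1a, and 1 was lower, Sp1. Their median log2 fold change was 0.44, with 29 above 0 and 16 below. For 5 the tissues did not overlap and skin lay higher, and for 4 skin lay lower, against 6.11% and 13.4% of all genes tested. The calls compare with 1.85% higher and 3.58% lower, and the median with -0.29, over all genes. The -0.29 depends on the filter, as given above.

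Of 20 genes of ligands and ligand activation, 12 had no count in any library, against 11120 of all 22549 genes. Among the 12 were Tgfb2 and the latent TGF-beta binding protein genes Ltbp1, Ltbp2 and Ltbp4. The latent TGF-beta docking receptor Lrrc32 (GARP) and the activating integrin chains Itgb6 and Itgb8 were among them too. Of the 4 tested, 0 were called, and 1 had an unadjusted p under 0.05. That gene, the alpha V integrin Itgav, whose heterodimers activate latent TGF-beta, stood at 0 in all 4 skin libraries, against 41.1, 36.2, 4.13 and 5.80 CPM in spleen (at least 56.3-fold lower against 3 counts per library; edgeR adjusted p = 0.0551). A bound of this kind allows for counting error but not for RNA lost on the way to the sequencer. DESeq2 and limma-voom called it. Lrrc33, a docking protein for latent TGF-beta of myeloid cells, stood at 108, 104, 53.2 and 263 CPM in skin, against 219, 217, 293 and 219 CPM in spleen (edgeR adjusted p = 0.784). Furin, the protease that cuts the TGF-beta precursor, stood at 45.1 ± 34.3 CPM in skin, against 18.6 ± 32.7 CPM in spleen, and Bmp7, a bone morphogenetic protein, at 92.6 ± 26.4 CPM in skin, against 75.8 ± 34.3 CPM in spleen (n = 4 each). Neither was called.

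Of 16 other receptors and Smads of the TGF-beta and bone morphogenetic protein branches, 8 had no count in any library. Over all 22549 genes, 11120 had none. Of the 16, 1 was tested. This was Smad1, a receptor Smad of the bone morphogenetic protein branch, at 0, 124, 0 and 184 CPM in skin, against 0, 114, 27.1 and 8.03 CPM in spleen (edgeR adjusted p = 0.998). It was at 0 in both tissues in some libraries, and the values overlapped.

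Of 34 Smad partners, ubiquitin ligases and phosphatases, 25 were tested, 0 were higher and 1 was lower. The lower gene was Sp1, a zinc finger transcription factor that works with Smads at target promoters. It stood at 0 in all 4 skin libraries, against 35.7, 76.5, 30.6 and 20.7 CPM in spleen (at least 106-fold lower; edgeR adjusted p = 0.0473). The call was lost in each of the 8 fits without 1 library (edgeR adjusted p = 0.0787 to 0.137), with no filter (0.165), with the replicate block (0.355) and without the 50 most abundant genes (0.05003). The co-activator Crebbp, a histone acetyltransferase, stood at 0.757, 4.29, 6.92 and 0.565 CPM in skin, against 35.7, 44.6, 12.5 and 28.4 CPM in spleen. The tissues did not overlap, and the gene was not called (edgeR adjusted p = 0.454). The Smad phosphatase gene Ppm1a stood at 58.5 ± 34.5 CPM in skin, against 11.1 ± 8.01 CPM in spleen (edgeR adjusted p = 0.713). The Smad7 and SnoN ubiquitin ligase Rnf111 (Arkadia) stood at 1.41 ± 2.73 CPM in skin, against 48.7 ± 41.9 CPM in spleen (edgeR adjusted p = 0.656). Ppp1r15a, which brings protein phosphatase 1 to its substrates, stood at 1447 ± 427 CPM in skin, against 315 ± 544 CPM in spleen. Its spleen mean is set by replicate 4, at 1131 CPM, against 19.3 to 55.6 CPM in the others. It was not called with all libraries (edgeR adjusted p = 0.576) and was called without spleen replicate 4 (edgeR adjusted p = 0.0034).

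Of 25 transcriptional targets reported for TGF-beta in various cells, 15 were tested, 1 was higher and 0 were lower. For 5 of the 15 all skin values lay above all spleen values, for 1 below, and 9 overlapped, against 6.11% above and 13.4% below among all genes tested. The median log2 fold change of the 15 was 1.10, against -0.29 over all genes, which depends on the filter as given above. The list was not sorted by whether TGF-beta raises or lowers a gene, so its median has no expected sign. The higher gene was Cdkn1a, the cyclin-dependent kinase inhibitor p21, which p53 also induces. It rose to 663, 802, 857 and 286 CPM in skin, against 0, 0, 0 and 2.53 CPM in spleen (log2 fold change 10.03 ± 1.88, SE; edgeR adjusted p = 0.0343). The call was lost without any 1 of skin replicates 1, 2 or 3 or spleen replicates 1, 2 or 3 (edgeR adjusted p = 0.0655 to 0.0910). It held without skin replicate 4 (0.0427) and without spleen replicate 4 (0.00198), and was lost with the replicate block (0.0934). In skin, Cdkn1a was lowest in replicate 4, with the lowest keratinocyte sum, and highest in replicate 3, with the highest sum, while replicates 1 and 2 had the opposite order. The part of keratinocytes was not tested.

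Itgae, the alpha E integrin that TGF-beta induces in T cells, stood at 293, 366, 725 and 1138 CPM in skin, against 0, 0, 0 and 15.2 CPM in spleen. Its highest skin value came with the lowest sum of keratinocyte markers and its second highest with the highest sum, and the part of keratinocytes was not tested. With all libraries it was not called by edgeR (adjusted p = 0.120) and was called by DESeq2 (0.000482) and limma-voom (0.0349). Without spleen replicate 4 edgeR called it (0.00387). Pmepa1, a feedback inhibitor of TGF-beta signalling that binds Smads, stood at 133, 79.6, 190.5 and 156 CPM in skin, against 0, 0, 12.3 and 9.07 CPM in spleen. It was not called by edgeR (adjusted p = 0.453) and was called by DESeq2 (0.0403) and limma-voom (0.0473). Bambi, a pseudoreceptor that blocks type I receptors, stood at 63.7, 118, 183 and 50.8 CPM in skin, against 0, 0, 0 and 21.9 CPM in spleen (edgeR adjusted p = 0.733). Pmepa1 and Bambi were singled out after their values were seen, because the tissues did not overlap.

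Junb, an AP-1 subunit that TGF-beta and many other stimuli induce, stood at 4689, 4977, 8268 and 5603 CPM in skin, against 207, 236, 156 and 3048 CPM in spleen. The spleen library at 3048 CPM was replicate 4. With all libraries Junb was not called by edgeR (adjusted p = 0.223) or limma-voom (0.551) and was called by DESeq2 (0.0210). Without spleen replicate 4 edgeR called it (0.000308). Cish, a suppressor of cytokine signalling, stood at 431 ± 118 CPM in skin, against 138 ± 130.2 CPM in spleen (edgeR adjusted p = 0.259; called by limma-voom, 0.0240). Id2, an inhibitor of E protein transcription factors, was the target that lay wholly lower: 1262, 1075, 1260.5 and 1686 CPM in skin, against 2240.02, 1839, 2796 and 2157 CPM in spleen. The log2 fold change of Id2 was -0.77 ± 0.19 (SE; 95% interval -1.20 to -0.35), and its edgeR adjusted p was 0.05003, above the threshold of 0.05. It was called with upper-quartile scaling (0.0480), with the 5 CPM filter (0.0461), by DESeq2 (0.0138) and without skin replicate 4 (edgeR adjusted p = 0.0300).

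**Figure D3:**
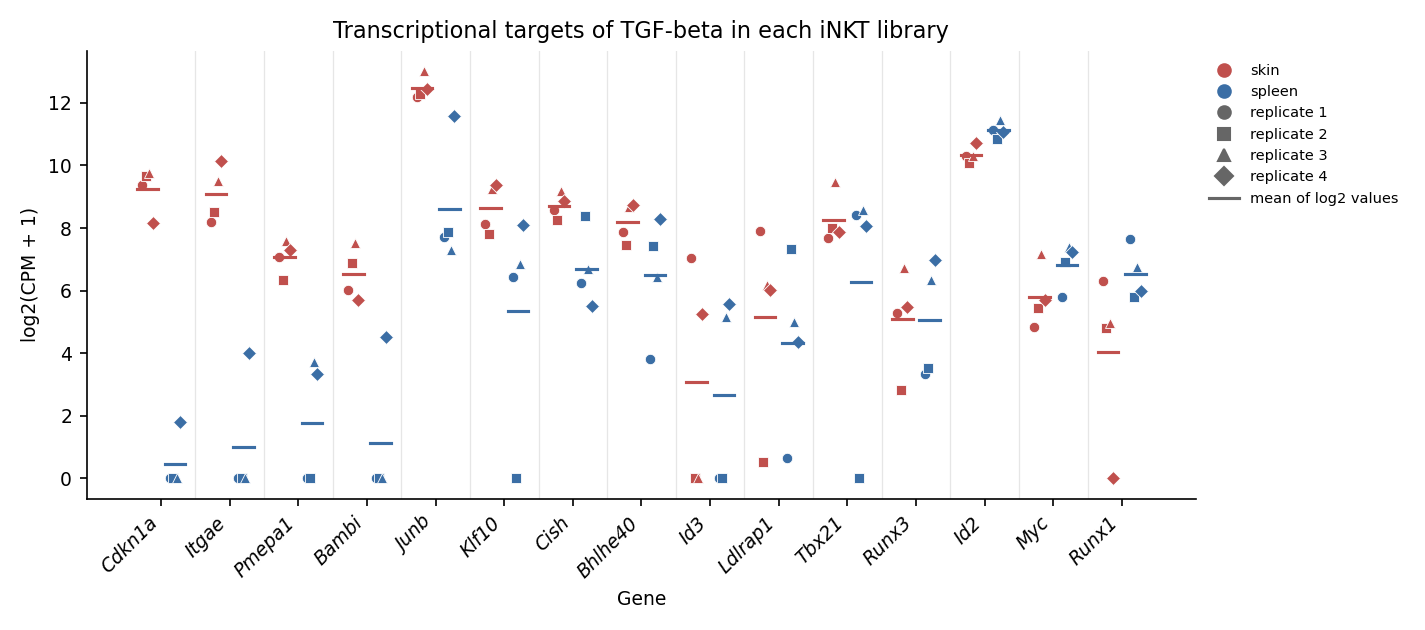
Level of the 15 tested transcriptional targets in each library as log2(CPM + 1), with skin libraries in red to the left of spleen libraries in blue, a marker shape for each replicate number, a line at the mean of the 4 log2 values, and genes ordered by log2 fold change. Cdkn1a, Itgae, Pmepa1, Bambi and Junb lie wholly higher in skin, Id2 lies wholly lower, and 9 genes overlap.

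Of the genes near the threshold, Tgfb1 had a log2 fold change of 2.33 to 2.91 over the 18 alternatives. Its adjusted p was under 0.05 in 2 of them, and in 0 of the 8 edgeR fits without 1 library. Skil passed without spleen replicate 3, which held 270 of its 271 spleen counts. Itgae passed with all libraries under DESeq2 and limma-voom, and under edgeR without spleen replicate 4, which held all of its spleen counts.

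**Figure D4:**
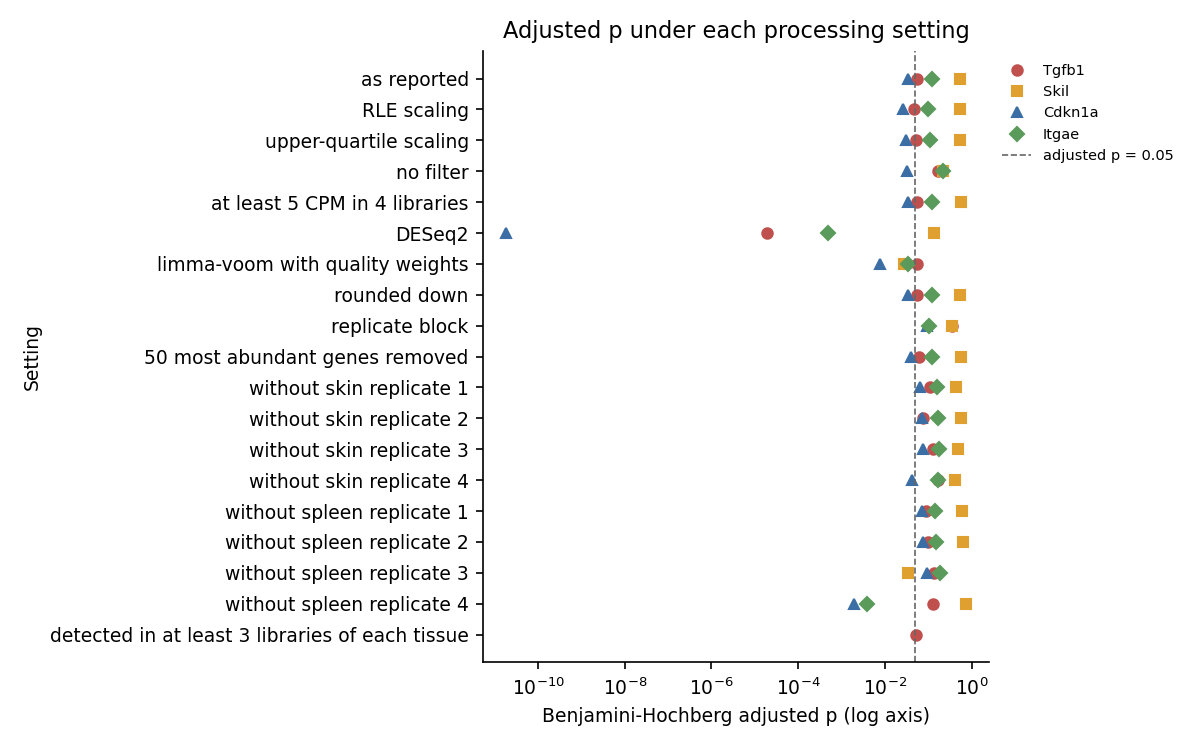
Benjamini-Hochberg adjusted p (x axis, log scale) of Tgfb1, Skil, Cdkn1a and Itgae as reported and under each of the 18 alternative settings (y axis), with a dashed line at 0.05. Tgfb1 passes with DESeq2's size factors and with DESeq2, and Skil passes with limma-voom and without spleen replicate 3; Skil, Cdkn1a and Itgae have no point where the setting did not test them.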

How the data were processed

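RNA of skin and spleen iNKT cells was made into libraries with a full-length low-input kit (SMART-Seq v4) that does not mark strand, and read as 75 bp pairs, per the labels' protocols. The deposited values are expected counts, estimated per gene by RSEM per the submitters' processing notes, which also name FastQC, DESeq2 1.16.1 and mm9 without role. The aligner, annotation and filters were not given in the sources used here. Counts of paralogs and overlapping genes are uncertain. No coordinates are printed, since the available reference has a different build.

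Counts were rounded. With edgeR 4.0.16 and limma 3.58.1 (R 4.3.3), filterByExpr left 6920 genes, TMM scaled the libraries, and tissue was the single term of a robust quasi-likelihood fit (adjusted p by Benjamini-Hochberg over all genes tested, threshold 0.05). An SE is the log2 fold change divided by the square root of F, and intervals use its t distribution. DESeq2 1.42.0 and limma-voom with quality weights were alternatives, beside other scalings and filters, rounding down, a replicate block, removal of the 50 most abundant genes and each library left out. Zeros at a like level are the share among tested genes within 1.25-fold of the gene's mean in the other 3 libraries of the tissue. No pair of libraries agreed within sampling noise (smallest chi-square per degree of freedom 112). The lists held 161 symbols, all matched. No columns were left unused (0).

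Members and lists were chosen with earlier results of these data known. Named by rule were the 10 genes, each called gene of the other lists and up to 4 uncalled ones per list by adjusted p, and 3 genes of like profile per gene detected in all libraries, leaving out symbols of predicted genes, clones and small RNAs. Some genes of like profile are not reported here. Pathway genes whose tissues did not overlap were added after their values were seen.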

Additional observations from a re-analysis of the deposited data

Results flagged for a closer look

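Of 54 groups of 4 values checked (27 genes in 2 tissues), 10 held a library far from the other 3. For normally distributed values the rule flags about 1 in 20 groups. It was applied here to CPM values, where 3 libraries at 0 and 1 above 0 are always flagged. The 1 in 20 is therefore no measure of how many flags these data would give by chance. Of the 10 main genes, Tgfbr1 stood at 95.4 CPM in skin replicate 3 and 0 in the other skin libraries. Skil stood at 38.5 CPM in spleen replicate 3 and at most 0.149 CPM in the other spleen libraries.

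Spleen replicate 4, the library with the fewest tested genes at 0, was far above the other spleen libraries for 5 genes. It held 1131 CPM of Ppp1r15a (next highest 55.6), 3048 CPM of Junb (next highest 236), 15.2 CPM of Itgae, 21.9 CPM of Bambi and 2.53 CPM of Cdkn1a (the others at 0). Lrrc33 stood at 293 CPM in spleen replicate 3 (next highest 219), Furin at 67.4 CPM in spleen replicate 1 (next highest 5.95) and Rnf111 at 5.50 CPM in skin replicate 2 (next highest 0.151).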

How the results depend on the processing

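With edgeR and all libraries, 128 genes were higher and 248 lower in skin. Higher and lower genes numbered 295 and 447 with DESeq2, 209 and 519 with limma-voom, 36 and 14 with the replicate block, and 57 and 49 without the 50 most abundant genes. Lower genes numbered 48 with no filter and 42 among genes with a count in 3 or 4 libraries of both tissues (the well-detected genes, an alternative added once the data had been seen). Fits without 1 library gave 47 to 102 higher and 17 to 111 lower. Of the 10 genes, 1 was higher with RLE scaling, with DESeq2 and with limma-voom, and 0 to 1 without 1 library; 0 were lower in every setting run. Of the other pathway genes, 4 were higher with DESeq2 and with limma-voom, 0 with the block and among the well-detected genes, and 0 to 4 without 1 library. Lower ones numbered 2 with upper-quartile scaling, with the 5 CPM filter and with limma-voom, 3 with DESeq2, 0 with no filter, the block, without abundant genes or among the well-detected genes, and 0 to 1 without 1 library. The well-detected set leaves out Cdkn1a, Itgae, Pmepa1, Bambi, Sp1 and Itgav, so its counts of 0 do not test those genes. The cause of these shifts in number was not tested, except that a fit without 1 library has fewer samples.

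Log2 fold changes turned negative with limma-voom for Tgfbr1 (-3.46), Smad2 (-4.44), Smad3 (-0.89), Smad4 (-0.12), Bmp7 (-0.014) and Smad1 (-2.40), where the median of all genes moved by -1.55. With the replicate block they did for Tgfbr1 (-4.56), Smad2 (-4.63), Smad3 (-0.33) and Smad1 (-0.074), where that median moved by -0.36. Without 1 library, log2 fold changes ran from -8.43 to 2.96 for Tgfbr1, -0.55 to 0.57 for Smad2, -0.35 to 0.64 for Smad3 and -0.14 to 0.82 for Smad4. The -8.43 comes from the fit that leaves Tgfbr1 no skin count, so its size means little. The cause of these changes of sign was not tested. Same-numbered libraries correlated at 0.00 to 0.01 in their deviations from the tissue means, and 1 of 4 skin libraries correlated best with its own number. The highest correlation of any skin library with a spleen library was 0.043. With all values this low, they cannot decide whether the numbers pair the tissues, and the labels do not say. Some libraries stood at 0 for Tgfbr1, Smad2, Smad3, Smad7, Skil and Tgif1, and how far depth limits these genes was not tested. Genes tested only at 0 in skin have bounds that cover counting error alone.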
